A study of Mus musculus with 14 samples.

Results

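12N1G and N2N1G are cell lines of mouse small cell lung cancer, each grown from a lymph node metastasis of an RPR2 tumor, and the peak lists of both are closely alike. The comparison asked which accessible chromatin still differs between them. It took the 2 libraries of 12N1G and the 2 of N2N1G, 4 of the 14 libraries of the series. Per the labels, both lines carry the RPR2 genotype and were grown in suspension in DMEM with serum, and the labels give no treatment for either line. In models of this cancer RPR2 denotes the combined loss of Rb1, Trp53 and Rbl2, which restrain cell growth, so both groups share that loss. The labels give neither the animal of origin of each line nor whether its libraries are separate cultures. Spread between the libraries of a line may therefore be technical, and with 2 libraries against 2 no exact test of a single value can give a p below 0.333. The other 5 lines, with 10 libraries, served only for context. They are 1373M1 (RPR2, liver metastasis), 1398M1 and 1399M4 (RPR2;Nfibf/f, liver metastases), and 1398P2 and 1399P1 (RPR2;Nfibf/f, lung tumors).

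Small cell lung cancer is a neuroendocrine tumor that spreads early to lymph nodes and liver. Its chromatin is kept open at neural and neuroendocrine genes by factors such as NEUROD1 and NFIB, and the oncogene MYCL is often amplified. In ATAC-seq a transposase cuts accessible DNA, so that a peak marks an open promoter or a candidate distal element such as an enhancer. Distal elements usually vary more between related cells than promoters do.

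A region here is an interval made by merging peaks of the 4 libraries that overlap by at least 1 bp. A line counts as open there when both of its libraries have a peak, and as closed when both lack one. Regions open in 12N1G and closed in N2N1G are called 12N1G-only, and those open in N2N1G and closed in 12N1G are called N2N1G-only. The 4 sequences that follow are promoter windows, 250 bases before to 50 after a gene start, that lie wholly inside such a line-only region. Whole cover was found at 2 of 32 genes with a 12N1G-only promoter and 7 of 46 with an N2N1G-only promoter. The 4 windows are thus examples and not typical. From the 7, those with a peak in the most libraries of the other lines were taken. The sequences are from RefSeq on GRCm38.p6, 5′ to 3′ on the strand of the gene, and capitals mark a match to a searched motif. Stra6 (chr9:58128838-58129137, plus strand) and Ptpn5 (chr7:47132549-47132848, minus strand) lie in 12N1G-only regions. Stra6 encodes a cell-surface receptor for retinol-binding protein, and Ptpn5 a tyrosine phosphatase of neurons. Tnfrsf18 (chr4:156026072-156026371, plus strand), a receptor of lymphocytes, and Fhit (chr14:10453409-10453708, minus strand), a tumor suppressor at a fragile site, lie in N2N1G-only regions.
Stra6: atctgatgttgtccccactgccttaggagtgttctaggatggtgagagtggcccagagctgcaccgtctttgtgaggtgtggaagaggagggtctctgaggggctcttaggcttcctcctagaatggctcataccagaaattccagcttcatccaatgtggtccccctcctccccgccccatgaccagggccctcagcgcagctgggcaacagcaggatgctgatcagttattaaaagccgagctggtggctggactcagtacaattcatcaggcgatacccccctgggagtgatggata
Ptpn5: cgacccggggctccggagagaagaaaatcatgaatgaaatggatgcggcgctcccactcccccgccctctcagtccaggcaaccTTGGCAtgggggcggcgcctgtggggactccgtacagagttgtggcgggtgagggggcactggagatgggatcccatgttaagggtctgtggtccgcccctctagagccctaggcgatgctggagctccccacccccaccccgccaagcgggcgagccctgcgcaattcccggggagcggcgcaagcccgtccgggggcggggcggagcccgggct
Tnfrsf18: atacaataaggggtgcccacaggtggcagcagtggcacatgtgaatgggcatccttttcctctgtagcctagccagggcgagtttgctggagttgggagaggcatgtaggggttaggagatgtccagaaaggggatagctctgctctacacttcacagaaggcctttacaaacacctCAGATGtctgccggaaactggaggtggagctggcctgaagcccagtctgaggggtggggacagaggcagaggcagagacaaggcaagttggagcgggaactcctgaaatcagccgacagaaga
Fhit: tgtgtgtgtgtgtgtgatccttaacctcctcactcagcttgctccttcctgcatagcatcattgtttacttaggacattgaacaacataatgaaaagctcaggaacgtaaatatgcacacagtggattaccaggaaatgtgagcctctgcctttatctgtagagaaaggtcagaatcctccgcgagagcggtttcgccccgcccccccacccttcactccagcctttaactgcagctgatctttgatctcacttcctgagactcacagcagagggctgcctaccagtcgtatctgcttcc

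The motifs searched, on both strands, were CAGATG, the E-box of NEUROD1, TTGGCA, a half-site of the NFI family, and TGANTCA, the AP-1 site. The full NFI palindrome was searched too and was in no window of a line-only region, as in nearly all windows, of which 0.0333% hold it. The half-site can fall inside the full site. The window of Ptpn5 holds TTGGCA and that of Tnfrsf18 holds CAGATG. The windows of Stra6 and Fhit hold no match and have no capitals. CAGATG was found in 5 of 35 windows in 12N1G-only regions and 6 of 47 in N2N1G-only regions, against 14.4% of all 21045 windows. TTGGCA was found in 3 windows in 12N1G-only and 9 in N2N1G-only regions, against 13.1% of all windows, and TGANTCA in 6 in 12N1G-only and 4 in N2N1G-only regions, against 7.04%. These counts are small and were not tested, and a match is a description of letters, not of a bound site.

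The 4 lists held 72418 and 72131 peaks in 12N1G and 70626 and 70271 in N2N1G on chromosomes 1 to 19 and X. The lists carry no read totals. The lowest local background of a library, solved from the authors' values, stood for depth, and was 0.803 and 0.694 fragments per bp in 12N1G, against 0.632 and 0.723 in N2N1G. A missing peak is therefore missing only at these depths. Peaks were narrower in 12N1G, with a median width of 422 and 396 bp, against 455 and 462 bp in N2N1G. All 12 neuroendocrine genes with a promoter window, among 16 on the list, had one open in both lines, beside 59% of all promoter windows. Lists of widely used genes were open to the same degree, with 24 of 24 chromatin regulators and 18 of 18 cell survival and PI3K genes. No peak lay in a promoter window of 7 of 7 lymphocyte and myeloid genes and 10 of 10 hepatocyte genes, beside 38% of all promoter windows without one. Other marker lists were not closed throughout. Of 6 fibroblast and endothelial genes with a window, 3 had one open in both lines and 2 had no peak. Of 6 lung epithelial genes, 1 had one open in both lines and 4 had no peak. Lymphocyte and myeloid genes held 22 and 23 regions in 12N1G and 25 and 20 in N2N1G in sum, with 4 of 12 members at 0. Hepatocyte genes held 20 and 20 regions in 12N1G and 20 and 18 in N2N1G, with 4 of 12 at 0. Fibroblast and endothelial genes held 42 and 41 in 12N1G and 40 and 46 in N2N1G, with 1 of 13 at 0.

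Most open chromatin was shared. The merge gave 93740 regions, of which 51924 (55.4%) had a peak in all 4 libraries. In all, 2690 regions (2.87% of those merged) were 12N1G-only and 2388 (2.55%) were N2N1G-only. Of the 59801 regions open in 12N1G, 86.8% were also open in N2N1G and 4.5% were closed there. Of the 59154 open in N2N1G, 87.8% were also open in 12N1G and 4.04% were closed there. Between the 2 libraries of 12N1G, 21543 regions had a peak in 1 and not in the other, and between those of N2N1G 21327. Between a library of 12N1G and one of N2N1G the number was 21684 to 24864 over the 4 pairs, above that within either line. The Jaccard index, the share of regions with a peak in either library that have one in both, was 0.735 within 12N1G and 0.735 within N2N1G. Across the lines it was 0.7, 0.715, 0.709 and 0.731, lower than within each line in all 4 pairs. When each library was cut to the same number of its strongest peaks, the order of the counts turned, with 2363 12N1G-only and 2652 N2N1G-only regions. The order stayed with a -log10 q of at least 5 throughout, at 2124 12N1G-only and 1735 N2N1G-only regions. It also stayed with the stricter overlap, the merge of all libraries and without bins of raised background. It turned again when an N2N1G library was left out, where 1 library alone decides what is open. Which line had more regions of its own thus differed between settings, and the cause was not tested.

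**Figure D1:**
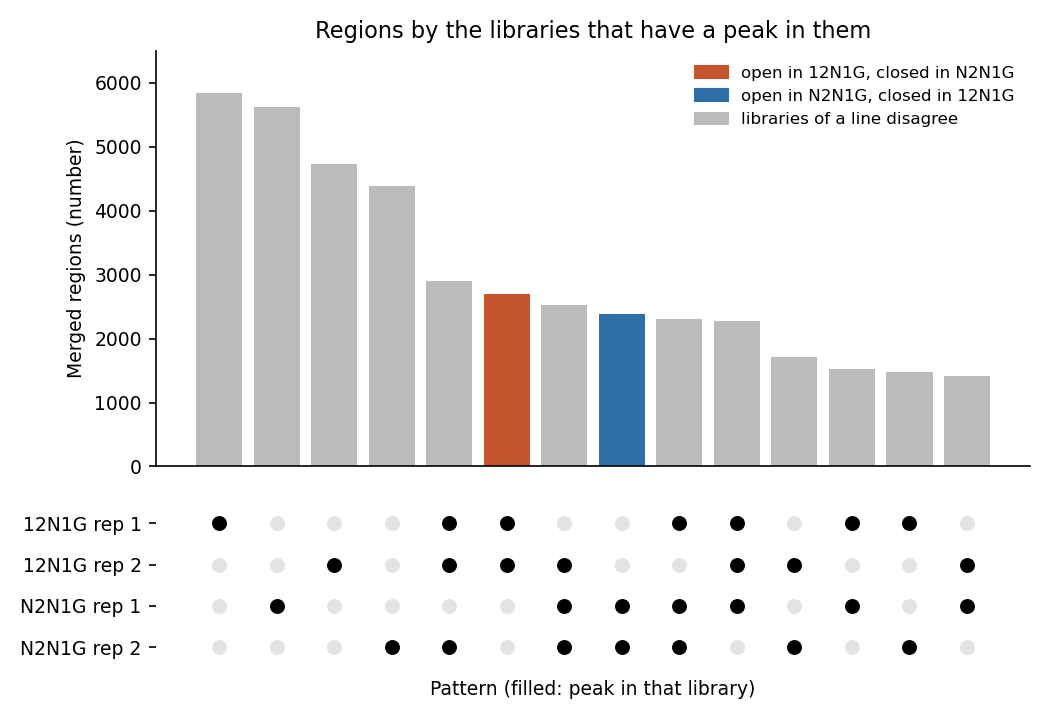
Number of merged regions for each pattern of peaks over the 4 libraries, where filled dots under a bar show which libraries have a peak. The 51924 regions with a peak in all 4 libraries are not drawn; the 2690 12N1G-only and 2388 N2N1G-only regions stand above the 4 patterns with 1 library of each line (1412 to 1709) and below the 4 patterns with a single library (4393 to 5839).

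Line-only regions were short and weak. Their median width was 299.5 bp for 12N1G-only and 371.5 bp for N2N1G-only regions, against 677 bp for regions open in both lines. Strength was read as the rank percentile of the authors' fold enrichment within a library, 100 being the strongest peak. This ranking and the q used as a threshold are the authors' own values, used only within a list. The median percentile was 23.7 in 12N1G-only and 21.2 in N2N1G-only regions, against 61.4 in regions open in both lines and 18.1 in regions where the libraries of a line disagree. A percentile over 50 was found in 278 12N1G-only and 94 N2N1G-only regions. Most line-only regions thus lay in the lower part of the ranking of their own library. When open required a -log10 q of at least 5 in both libraries and closed still meant no peak at any q, 1140 12N1G-only and 685 N2N1G-only regions were left. This alternative was chosen after seeing the data.

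**Figure D2:**
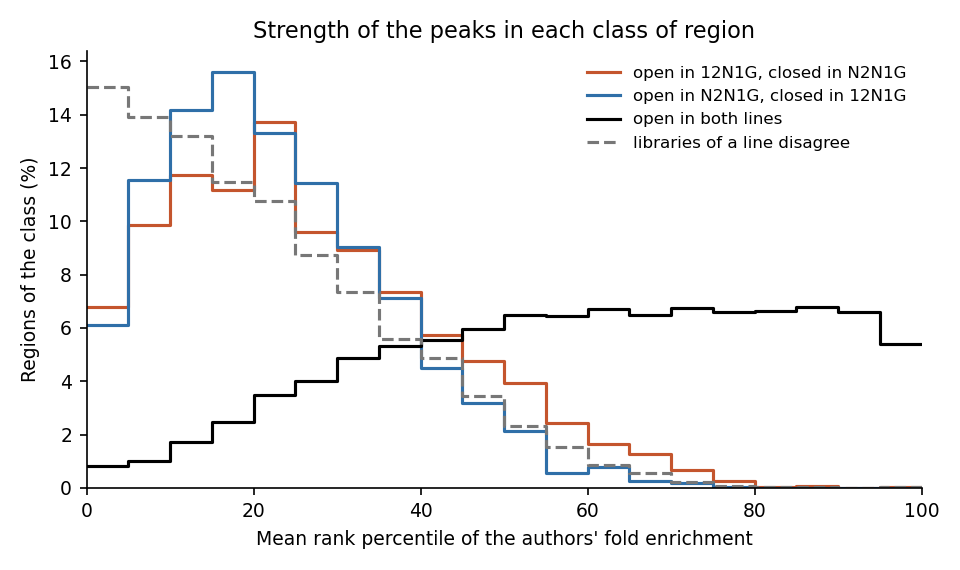
Share of the regions of each class (%) by the mean rank percentile of the authors' fold enrichment over the libraries that have a peak, in steps of 5. Both line-only classes peak near their medians of 23.7 and 21.2, close to regions in which the libraries of a line disagree (median 18.1), while regions open in both lines spread up to the highest ranks.

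Strong 12N1G-only regions lay 34382 bp from Abl2, a tyrosine kinase gene, 94956 bp from Gdnf, a neurotrophic factor gene, 91721 bp from Id4, an inhibitor of helix-loop-helix factors, and in Rasgrf2, a Ras exchange factor gene. Their mean percentiles were 79.8 to 86.9. The strongest N2N1G-only region lay in Fam117b (chromosome 1, 59948145 to 59948428), at percentiles 79.7 and 78.9 in the N2N1G libraries. It was followed by regions in Fgf10, a growth factor of lung branching, near Pcdh8, a protocadherin gene, and in Arhgap24, a GTPase-activating protein gene, and Fchsd2. Their mean percentiles were 70.8 to 74.7. The region in Fgf10 (chromosome 13, 118734314 to 118734638) had a peak in none of the 10 libraries of the other lines. That in Fchsd2 (chromosome 7, 101213686 to 101214114) had a peak in all 10, so of the 14 libraries it lacked a peak only in the 2 of 12N1G.

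Line-only regions lay mostly away from gene ends. Within 1 kb of a gene end lay 5.24% of 12N1G-only and 5.61% of N2N1G-only regions, against 25.3% of regions open in both lines and 5.87% of those where libraries disagree. Inside a gene lay 48.8% of 12N1G-only and 50.7% of N2N1G-only regions, against 61.8% of regions open in both lines and 49.3% of those where libraries disagree. The nearest region open in both lines was a median of 9.3 kb from a 12N1G-only region and 13.7 kb from an N2N1G-only region. Line-only regions were mainly single: 83.8% of 12N1G-only and 87% of N2N1G-only regions had no other of their class within 50 kb.

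Many line-only regions were open in other tumor lines. In at least 1 of the 5 other lines, 50.3% of 12N1G-only and 58.5% of N2N1G-only regions were open, against 87.9% of regions open in both lymph node lines and 47.4% of those where libraries disagree. No peak in any of the other 10 libraries was found for 818 12N1G-only regions (30.4%) and 605 N2N1G-only regions (25.3%). In each of the 5 other lines the share was lower for 12N1G-only than for N2N1G-only regions. The order turned when an N2N1G library was left out. The shares open in at least 1 other line were then 56.4% of 12N1G-only and 46.8% of N2N1G-only regions without N2N1G replicate 1. Without N2N1G replicate 2 they were 57.6% of 12N1G-only and 44.5% of N2N1G-only regions. Without a library of 12N1G they were 40.7% and 38.5% of 12N1G-only regions, against 62.6% and 62.4% of N2N1G-only regions. In every such run the line left with 1 library, which alone then decides what is open, had the lower share. These runs therefore cannot tell whether the order depends on a library. In the lung tumor line 1399P1 24.8% of 12N1G-only and 34.7% of N2N1G-only regions were open. In 1373M1, the other RPR2 line, these were 24% of 12N1G-only and 31% of N2N1G-only regions. The difference between the classes was not tested. All 5 other lines were open at 47 12N1G-only regions (1.75%) and 93 N2N1G-only regions (3.89%). The share was 2.31% of regions where libraries of a line disagree and 34.2% of regions open in both lymph node lines. At these 47 and 93 regions 1 lymph node line lacked a peak that every other line had. The strongest such 12N1G-only regions lay 7631 bp from Slc5a1, a glucose transporter gene, and in Abo and Lmtk2, and the strongest such N2N1G-only regions in Fchsd2, near Capn8 and in Fer, a tyrosine kinase gene.

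**Figure D3:**
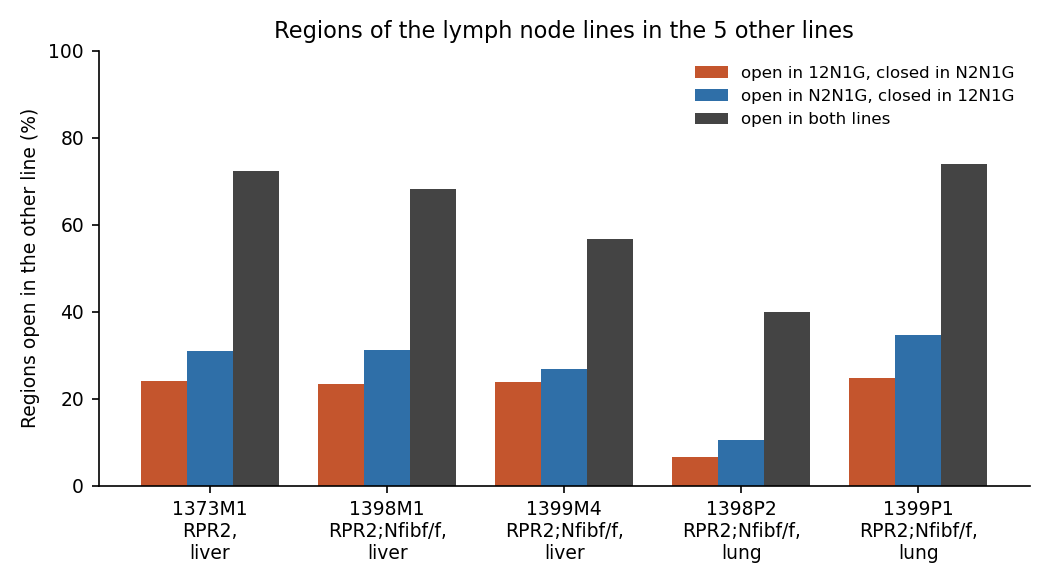
Share of 12N1G-only, N2N1G-only and shared regions that were open, with a peak in both libraries, in each of the 5 other lines (%), with genotype and tissue under each line. Line-only regions stand at 6.5 to 34.7% and shared regions at 39.9 to 73.9%, and all 3 shares are lowest in 1398P2, which has a library with few peaks.

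Few promoters differed. Of 21045 promoter windows of 17274 genes, 12418 (59%) overlapped a region open in both lines and 7989 (38%) none. A 12N1G-only region covered part of 35 windows of 32 genes (0.166%) and an N2N1G-only region part of 47 windows of 46 genes (0.223%). At 556 windows (2.64%) of 508 genes the libraries of a line disagreed. A promoter window was met by 1.19% of 12N1G-only and 1.88% of N2N1G-only regions, beside 1.41% of regions where libraries disagree. The whole window was covered at 2 genes in 12N1G-only regions, Stra6 and Ptpn5, and at 7 in N2N1G-only regions, Tnfrsf18 and Fhit among them. Of the genes with a 12N1G-only promoter 15 have more than 1 start in the table, and at 8 of them another start was open in both lines. Of those with an N2N1G-only promoter 14 have more than 1 start, and at 11 another was open in both lines. The ranks were low, with a median percentile of 16.1 at 12N1G-only and 18.7 at N2N1G-only promoters.

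Among 12N1G-only promoters, Stra6 stood at percentiles 31.3 and 11.5 in 12N1G, and its region (chromosome 9, 58128481 to 58129152) was open in 2 of the 5 other lines. Gne, the key enzyme of sialic acid synthesis, stood at 47 and 22.5, and Bspry at 43.2 and 20.8, and both were open in all 5 other lines. Gne has a second start that was open in both lymph node lines, and Bspry does not. Gli2, a transcription factor of Hedgehog signaling, and Esr1, the estrogen receptor, were open in 3 other lines. Esr1 has another start that was open in both lymph node lines, and Gli2 does not. Lhx6, a homeobox factor of interneurons, was open in 1. Tfap2a, a transcription factor of neural crest and epidermis, stood at 7.1 and 17.9, and Ntf3, the neurotrophin-3 gene, at 0.6 and 3.6. Neither Tfap2a nor Ntf3 had a peak in any other line. Notch1, the NOTCH receptor gene, was the only promoter of the gene lists in a line-only region, and the region covered 5 bases of its window.

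Among N2N1G-only promoters, Tnfrsf18 stood at percentiles 18.4 and 48.4 in N2N1G and Fhit at 30.4 and 21.9, and both were open in all 5 other lines. Fhit has another start open in both lymph node lines, and Tnfrsf18 does not. The strongest was Samd9l, an interferon-induced gene, at 51.9 and 71.8, open in 3 other lines. Erbb2, a receptor tyrosine kinase, stood at 24.5 and 13.2, and Syk, a kinase of immune receptors, at 22.7 and 21.9. Both were open in 3 other lines. Map2k4, a kinase of JNK signaling, was open in 1. Stat5b, a transcription factor of cytokine signaling, Kmo, an enzyme of tryptophan breakdown, and Perm1 had no peak in any other line. Map2k4 and Stat5b each have another start that was open in both lymph node lines.

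At gene ends more broadly, 149 genes had a 12N1G-only and 143 an N2N1G-only region within 1 kb. The strongest 12N1G-only regions lay at Cntnap5c, Mmp13, a collagenase gene, Mymk, a myoblast fusion factor gene, C8b, a complement component gene, Gde1, Stac, Dhx32, Krt90, Mrpl22 and Padi4. Their mean percentiles were 41.3 to 57.1. The strongest N2N1G-only regions lay at Samd9l, Gm40755, Rhox4a2, Klf10, a TGF-beta-induced zinc finger factor gene, Mcpt2, Crisp2, Acss3, Ppfia2, Cers6, a ceramide synthase gene, and Pcdha12. Their mean percentiles were 36.5 to 61.9.

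The densest 12N1G-only regions lay beside Mycl, the oncogene on chromosome 4. Local background is the level of fragments around a summit, in multiples of the lowest level of the library, its floor. It was raised from 122.9 to 123.4 Mb, over Mycl, with medians of 90.4 and 59.6 times the floor in 12N1G and 70.9 and 67.6 times in N2N1G. From 121.6 to 122.8 Mb it was 27.3 and 21.4 times in 12N1G and 19.8 and 18.5 times in N2N1G. Both 12N1G libraries were above both N2N1G libraries in 8 of the 12 windows of 100 kb there, and the reverse held in 0. At the Mycl gene itself the order was the other way, with 94.7 and 80.4 times in 12N1G and 114.3 and 101 times in N2N1G. The groups overlap over the Mycl side of the block, while their medians do not overlap on the far side, and copy number itself was not measured here. Between 121.6 and 122.8 Mb 29 of 273 regions (10.6%) were 12N1G-only and 1 (0.37%) N2N1G-only, against 2.84% 12N1G-only and 2.56% N2N1G-only outside the block. The median rank percentile of these 29 was 0.29, among the weakest peaks by enrichment over their raised background. The 3 largest groups of 12N1G-only regions, with 10, 6 and 5 regions, all lay there. The part of the background in these calls was not tested. Without all 1 Mb bins of raised background 2597 12N1G-only and 2339 N2N1G-only regions remained. Mycl held 5 regions in each of the 4 libraries.

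**Figure D4:**
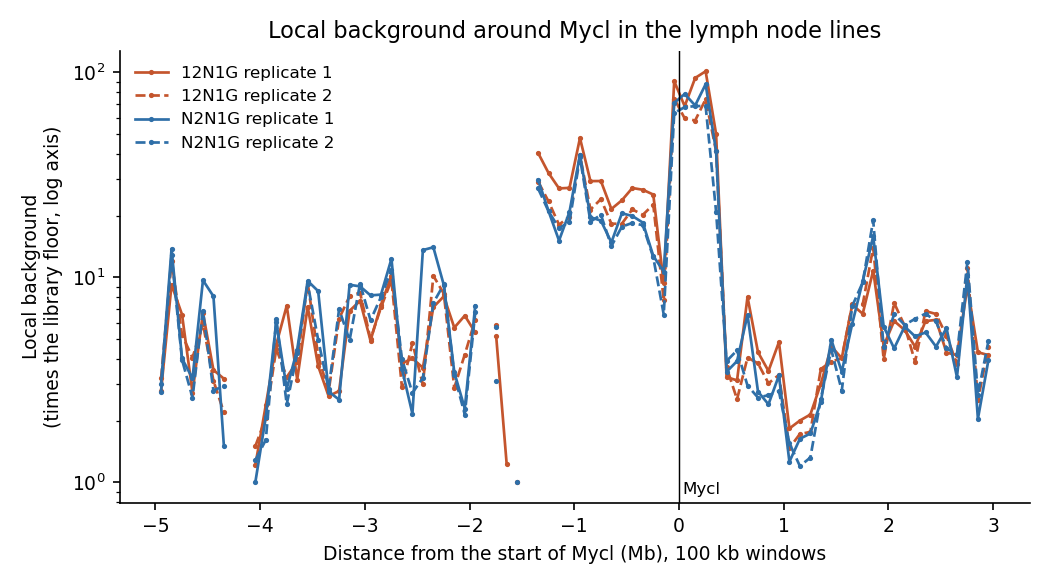
Local background in 100 kb windows against distance from the start of Mycl (Mb), in multiples of the floor of each library, on a log axis, for the 2 libraries of 12N1G and the 2 of N2N1G. All 4 libraries are raised over Mycl, and left of it both 12N1G curves run above both of N2N1G in 8 of the 12 windows of the outer block.

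Over the genome the local background was a little lower in 12N1G, with a median log2 difference of -0.13 over 2195 bins of 1 Mb. The median bin stood at 1.98 and 2.09 times the floor in 12N1G and 2.12 and 2.26 times in N2N1G. The median difference was below 0 on 20 of 20 chromosomes, but these share the floor of their library and are not replicates. On chromosome 9 the libraries overlapped, at 2.19 and 2.27 times in 12N1G and 2.12 and 2.41 times in N2N1G. Of the bins limma called 1 (0.0456%), and 285 (13%) had an unadjusted p under 0.05. Relative to the median bin of each library limma also called 1, and 168 (7.65%) had an unadjusted p under 0.05. Uncalled bins could stand apart too: on chromosome 6 from 14000001 to 15000000 the background was 3.25 and 2.53 times the floor in 12N1G and 6.35 and 7.16 times in N2N1G (limma adjusted p = 0.377). The called bin, on chromosome 4 from 16000001 to 17000000, stood at 1 and 1.1 times the floor in 12N1G and 9.75 and 8.23 times in N2N1G. The difference on the log2 scale was -3.1 ± 0.13 (SE), with a limma adjusted p of 0.0454. The bin lost its call in limma with at least 10 summits per bin, with the lower quartile, in 500 kb bins and without any 1 library.

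Counted by gene, the lines differed by single regions. Each protein-coding gene received the regions with a peak in its body or within 10 kb. At least 1 12N1G-only region lay at 1716 of 21631 genes (7.93%) and at least 1 N2N1G-only region at 1515 (7.0%). limma tested the 8009 genes that averaged 3 regions or more and called 209 (2.61%), 116 higher in 12N1G (1.45%) and 93 lower (1.16%), at an adjusted p of 0.05. All 209 had the same number of regions in both libraries of each line, as 2450 tested genes had, so the estimated spread was close to 0. Of the calls, 178 rested on a difference of 1 region. In the fit over all 14 libraries, which share one spread, limma called 0 of 7870 genes (0.0%) and 198 had an unadjusted p under 0.05. With the replicate number as a block limma also called 0, and 808 had an unadjusted p under 0.05. The calls therefore did not hold in a fit that shares its spread over the 7 lines.

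Of the called genes, 4 differed by 3 regions, all others by 1 or 2. Armc3 (chromosome 2, 19198865 to 19310243) held 5 and 5 regions in 12N1G and 2 and 2 in N2N1G, 1.13 ± 0.01 apart on the log2 scale (SE), with a limma adjusted p of 0.00616, and of 0.994 over all 14 libraries. Ntf3 (chromosome 6, 126101412 to 126166772) held 6 and 6 in 12N1G against 3 and 3 in N2N1G. Ccm2, a gene of blood vessel integrity, held 9 and 9 in 12N1G against 6 and 6 in N2N1G. Xpnpep1, an aminopeptidase gene, held 3 and 3 in 12N1G against 6 and 6 in N2N1G. The other genes of smallest p were Nkx2-5, a cardiac homeobox factor, and Zmym4, with 4 and 4 in 12N1G against 2 and 2 in N2N1G, and Cmya5 with 5 and 5 in 12N1G against 3 and 3 in N2N1G. At 4 and 4 in 12N1G against 3 and 3 in N2N1G stood 1190005I06Rik, 1700122O11Rik, 4930578I06Rik, Acss1 and Actrt3, named by alphabet among many ties. In the other direction, Asrgl1, Cwh43, Fam168a, H2-T22, a nonclassical MHC gene, Perm1, Tecr and Unc13c, a synaptic vesicle priming factor, held 2 and 2 in 12N1G against 4 and 4 in N2N1G. Col4a6, a basement membrane collagen, and Fads2, a fatty acid desaturase, held 3 and 3 in 12N1G against 5 and 5 in N2N1G. For those of these genes tested over all 14 libraries the limma adjusted p was 0.994.

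Wider gaps mostly did not reach a call. Every 12N1G library was above every N2N1G library in 647 of 8009 genes (8.08%), and the reverse held in 465 (5.81%). The gap was 3 or more regions in 38 genes with 12N1G higher (0.474%) and 10 with N2N1G higher (0.125%), a selection made after seeing the data. Thsd4, a gene of the extracellular matrix (chromosome 9, 59966931 to 60522113), held 41 and 36 regions in 12N1G and 24 and 26 in N2N1G. Its log2 difference was 0.6 ± 0.09 (SE; limma adjusted p = 0.189), and 5 of its regions were 12N1G-only. Megf11, a cell-surface protein of retinal neurons, held 26 and 24 in 12N1G and 14 and 19 in N2N1G, and 3 of its 12N1G-only regions lay together within the gene. Ccdc33, next to Stra6 on chromosome 9, held 19 and 17 in 12N1G against 13 and 12 in N2N1G. Tns1, which links integrins to actin, held 23 and 22 in 12N1G against 17 and 16 in N2N1G, with no line-only region. Ptprd, a receptor phosphatase of synapses, held 35 and 38 in 12N1G against 30 and 30 in N2N1G. Macf1, a linker of actin and microtubules, held 22 and 23 in 12N1G against 17 and 18 in N2N1G, and its near end lies in the raised block at Mycl. Ksr2 held 18 and 15 in 12N1G against 11 and 11 in N2N1G, and Fmn1, an actin nucleator, 16 and 16 in 12N1G against 12 and 11 in N2N1G.

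With N2N1G higher, Cfap61, a gene of cilia (chromosome 2, 145934757 to 146215035), held 21 and 22 regions in 12N1G against 26 and 26 in N2N1G, a log2 difference of -0.28 ± 0.04 (SE), with a limma adjusted p of 0.196. Zfp993 held 2 and 3 in 12N1G against 7 and 6 in N2N1G, and lies among similar zinc finger genes, whose reads can be hard to place. Pcsk2, the prohormone convertase of neuroendocrine cells, held 8 and 10 in 12N1G against 14 and 13 in N2N1G. Maml3, a coactivator of NOTCH, held 34 and 36 in 12N1G against 39 and 41 in N2N1G. Other genes in this direction were Erich3, Snap47, Xpnpep1, Nt5m and Cracd.

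**Figure D5:**
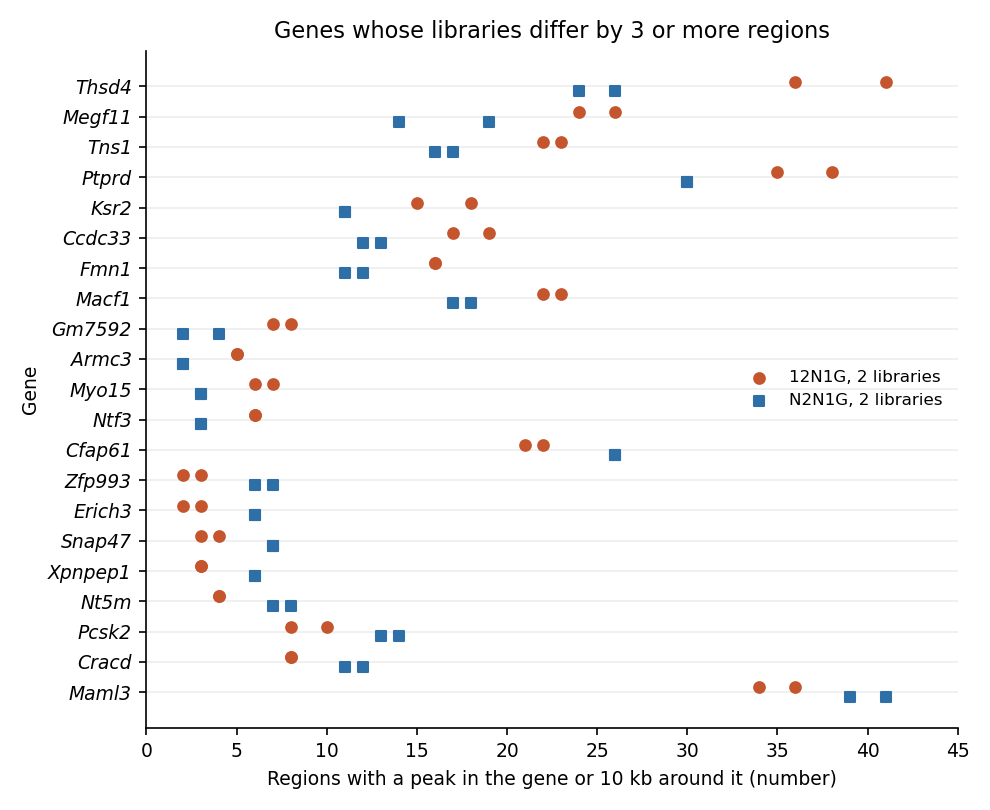
Number of regions with a peak in a gene or within 10 kb, in each library of 12N1G (circles) and N2N1G (squares), for 12 genes with the widest gap with 12N1G higher and 9 of the 10 genes with N2N1G higher. In each gene the lines are at least 3 regions apart, from Thsd4 (41 and 36 in 12N1G against 24 and 26 in N2N1G) to Maml3 (34 and 36 in 12N1G against 39 and 41 in N2N1G); libraries of equal number overlie each other.

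The genes with the most 12N1G-only regions were Thsd4 with 5 and Cacna1c, a calcium channel gene, Ccdc33, Macf1, Pde4d, a phosphodiesterase gene, and Prkcb, a protein kinase C gene, with 4 each. A further 25 genes were tied at 3. The genes with the most N2N1G-only regions were Cdh4 with 6, Camta1 and Dpp6 with 5, and Auts2, Gse1 and Maml3 with 4, and 20 genes were tied at 3. Several also held regions of the other class, such as Auts2 with 3 12N1G-only and 4 N2N1G-only regions. Camta1 held 41 and 48 regions in 12N1G and 44 and 42 in N2N1G, so that the totals overlap in spite of its line-only regions. This ranking is by count and not per region held. Each gene named in it held far more regions than the 2.87 per gene over all protein-coding genes. The fewest were at Ccdc33, with 19 and 17 in 12N1G and 13 and 12 in N2N1G. The most were at Gse1, with 52 and 51 in 12N1G and 53 and 54 in N2N1G.

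Among the 21 gene lists, with 364 genes, 15.7% of genes had a 12N1G-only and 16.8% an N2N1G-only region. This is above the shares of all protein-coding genes, but list genes also held 5.97 regions on average, against 2.87 for all genes. Per 100 regions they held 3.13 12N1G-only and 3.78 N2N1G-only regions, against 3.11 12N1G-only and 2.75 N2N1G-only for all genes. The median log2 difference over the 224 list genes tested was -0.01, as over all genes. limma called Dnmt3b, a DNA methyltransferase, and Tet1, a methylcytosine dioxygenase, as higher in 12N1G, with 4 and 4 regions in 12N1G against 3 and 3 in N2N1G. It called Smarca4, the ATPase of BAF remodeling complexes, and Wnt7a, a WNT ligand, as lower, with 3 and 3 in 12N1G against 4 and 4 in N2N1G. Each has an adjusted p of 0.994 over all 14 libraries. In the gene body alone Dnmt3b stood at -0.007 on the log2 scale.

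Cadherins, the calcium-dependent adhesion molecules, had 1 12N1G-only and 13 N2N1G-only regions over 25 genes. Per 100 regions this was 0.47 12N1G-only and 6.12 N2N1G-only. Of the 13, 6 lay at Cdh4, a cadherin of the nervous system, and 3 at Cdh13, which is anchored by a lipid tail. Cdh4 (chromosome 2, 179442423 to 179899377) held 28 and 37 regions in 12N1G and 35 and 39 in N2N1G, so the totals overlap, at -0.21 ± 0.19 on the log2 scale (SE), with a limma adjusted p of 0.607. Cdh6 held 4 and 4 in 12N1G against 7 and 6 in N2N1G, Cdh11 had 2 and 2 in 12N1G against 3 and 3 in N2N1G, and Cdh13 had 40 and 45 in 12N1G against 46 and 42 in N2N1G. The 1 12N1G-only region lay at Cdh3, with 4 and 4 in 12N1G against 3 and 4 in N2N1G. Cdh11 was below the filter and was not tested. Of the 19 cadherins tested, 12N1G was above N2N1G in all libraries for 1 and below for 3. Of all genes tested, 8.08% had 12N1G above and 5.81% below. The 1 above was Fat4, with 5 and 5 in 12N1G against 3 and 4 in N2N1G. Cadherins held 8.5 regions on average, against 2.87 over all protein-coding genes, so these shares are not matched for the number of regions. None of the 19 passed, and the list was singled out after its counts were seen.

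Synaptic adhesion genes had 12 12N1G-only and 17 N2N1G-only regions, or 3.98 12N1G-only and 5.64 N2N1G-only per 100 regions. Of 19 tested, 12N1G was above N2N1G in all libraries for 0 and below for 5. Of all genes tested, 8.08% had 12N1G above and 5.81% below. Synaptic adhesion genes held 14.35 regions on average and glutamate and GABA receptor genes 7.93, against 2.87 over all protein-coding genes. These shares are therefore not matched for the number of regions held. Nrxn3, a presynaptic neurexin, held 37 and 36 regions in 12N1G and 46 and 39 in N2N1G. Cntnap4 held 4 and 5 in 12N1G against 7 and 9 in N2N1G, and Lrrtm4, a postsynaptic partner of neurexins, 3 and 6 in 12N1G against 9 and 7 in N2N1G. None of the 19 passed. Glutamate and GABA receptor genes had 13 12N1G-only and 11 N2N1G-only regions, or 4.97 12N1G-only and 4.2 N2N1G-only per 100 regions, and 12N1G was above N2N1G in all libraries for 6 of 24 tested and below for 0. Grin2b, an NMDA receptor subunit, held 21 and 21 in 12N1G against 18 and 18 in N2N1G, a log2 difference of 0.21 ± 0.03 (SE), with a limma adjusted p of 0.159. Gria1, an AMPA receptor subunit, held 10 and 8 in 12N1G against 7 and 6 in N2N1G, and Grm5, a metabotropic receptor, 9 and 9 in 12N1G against 8 and 8 in N2N1G. None of the 24 passed.

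Of 31 axon guidance and migration genes tested, 12N1G was above N2N1G in all libraries for 5 and below for 5, beside 8.08% above and 5.81% below over all genes tested. The shares are not matched for the number of regions. Axon guidance and migration genes held 10.66 regions on average, against 2.87 over all protein-coding genes. They had 8 12N1G-only and 11 N2N1G-only regions, or 2.34 12N1G-only and 3.22 N2N1G-only per 100 regions, near the 3.11 12N1G-only and 2.75 N2N1G-only of all genes. Slit3, a guidance ligand, held 17 and 15 regions in 12N1G against 12 and 10 in N2N1G. Ntn1, the netrin-1 gene, held 16 and 16 in 12N1G against 13 and 12 in N2N1G, and Ephb1, an ephrin receptor gene, 22 and 21 in 12N1G against 18 and 18 in N2N1G. On the other side, Dcx, a microtubule protein of migrating neurons, held 6 and 5 in 12N1G against 8 and 7 in N2N1G, and Reln, an extracellular guide of migration, 11 and 10 in 12N1G against 14 and 12 in N2N1G. None of the 31 passed.

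The other lists of regulators and pathways had 5 or fewer line-only regions of either class. Their rates per 100 regions, given in parentheses, stand beside 3.11 12N1G-only and 2.75 N2N1G-only for all genes, and with so few regions 1 more or less moves them widely. NFI genes had 4 12N1G-only (5.16) and 1 N2N1G-only region (1.29). Cell survival and PI3K genes had 4 12N1G-only (3.73) and 1 N2N1G-only region (0.93). Lymph node homing genes had 4 12N1G-only (5.3) and 2 N2N1G-only regions (2.65). WNT genes, with 4 12N1G-only (3.05) and 5 N2N1G-only regions (3.82), and chromatin regulators, with 4 12N1G-only (2.93) and 4 N2N1G-only (2.93), were near the rates of all genes. Tuft-like genes had 2 12N1G-only (6.02) and 3 N2N1G-only regions (9.02), epithelial and mesenchymal genes 3 12N1G-only (6.78) and 2 N2N1G-only (4.52), and MHC class I genes 0 12N1G-only and 2 N2N1G-only (4.73). Among epithelial and mesenchymal genes, Zeb2, a repressor of epithelial genes, held 7 and 8 regions in 12N1G against 6 and 5 in N2N1G. Twist1, a mesenchymal transcription factor, held 2 and 2 in 12N1G against 3 and 3 in N2N1G, and Vim, the vimentin gene, held 1 and 1 in 12N1G against 2 and 2 in N2N1G. Twist1 and Vim were below the filter and were not tested.

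Neuroendocrine genes had 0 12N1G-only and 3 N2N1G-only regions (4.43 per 100 regions), all at Syt1, the calcium sensor of vesicle release, which held 11 and 10 regions in 12N1G against 12 and 14 in N2N1G. Insm1, a neuroendocrine transcription factor, held 4 in each library. NOTCH, YAP and REST genes had 5 12N1G-only (4.52) and 1 N2N1G-only region (0.9). Tead1, a DNA-binding partner of YAP, held 28 and 30 in 12N1G against 25 and 25 in N2N1G, and Tead4 8 and 10 in 12N1G against 8 and 5 in N2N1G. On the other side, Notch2 held 9 and 8 in 12N1G against 10 and 10 in N2N1G. Of 14 of these genes tested, 12N1G was above N2N1G in all libraries for 2 and below for 1. Over all genes tested this was 8.08% above and 5.81% below. Of the lymph node homing genes, Cd44, a hyaluronan receptor, held 6 and 5 in 12N1G against 4 and 4 in N2N1G, and Itga9, an integrin, 18 and 21 in 12N1G against 17 and 17 in N2N1G. Cxcl13, a chemokine of lymphoid follicles, held 0 and 0 in 12N1G and 1 and 1 in N2N1G. None of the neuroendocrine, NOTCH, YAP and REST, or homing genes passed.

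Among the targeted genes of RPR2, Rb1 held 3 and 3 regions in 12N1G and 4 and 3 in N2N1G, and Trp53 held 3 in each library. Rbl2 held 2 and 2 in 12N1G against 3 and 3 in N2N1G and had 1 N2N1G-only region. Peaks at these genes do not show whether the deleted exons are present, so they do not check the genotype. Nfib, the transcription factor gene for which the labels of both lines give no conditional allele, held 20 and 23 regions in 12N1G and 20 and 20 in N2N1G and had 1 12N1G-only region. The local background at Nfib was 10.5 and 5.16 times the floor in 12N1G and 8.47 and 8.03 times in N2N1G, so the lines overlap.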

How the data were processed

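ATAC-seq peak lists of the 14 libraries, 1 per library and not pooled, were used. The submitters' processing notes name MACS2, Bowtie2, SAMtools, Picard and cutadapt 2.10, and as builds GRCm38 and mm10. What each tool did, with which settings, and whether reads were shifted is not stated in the sources used here. A part of the deposited lists, both of N2N1G included and neither of 12N1G, carries the name of a human build, yet all chromosomes are those of mouse, and coordinates were read as GRCm38, 1-based. The authors deposited a fold enrichment, a ratio to the local background, and a -log10 p-value and -log10 q-value for each summit, with a lowest -log10 q of 1.3. The score the authors deposited was not used.

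Summits of a peak were joined, and the peaks of the 4 libraries on chromosomes 1 to 19 and X merged at 1 bp overlap. Under a Poisson model, fold enrichment and p together fix the pileup and local background, and 100% of pileups came out whole within 0.02. Background was divided by its lowest value in the library. Gene extents (21631 protein-coding genes) and promoter windows came from RefSeq on GRCm38.p6, without exons. Differences are 12N1G minus N2N1G. limma 3.58.1 in R 4.3.3 tested log2(scaled number of regions + 0.5), with an empirical Bayes trend, and log2 background per bin with at least 5 summits and a difference of at least 0.5, with Benjamini-Hochberg adjustment at 0.05. On this scale changes of genes with few regions look smaller than they are. On simulated whole numbers of regions (7101 genes run) limma called 0 of 60 genes changed 2-fold and 0 of 49 changed 4-fold. The sign was right in 58 and 49, so limma had little power on numbers drawn this way. On simulated continuous values, with the same spread for every gene, it called 98% of 100 genes changed 2-fold and 100% of 100 changed 4-fold. On simulated bins it called 75% of 100 changed by 1 and 96% of 100 changed by 2 on the log2 scale. It also called 3 of 1995 unchanged simulated bins, beside the 1 bin called in the data.

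Genes are named as the 10 per direction of smallest p, those with the most line-only regions, the strongest line-only regions and those at gene ends, list members with a line-only region or a call, and the targeted genes. From the lists only examples are given, and a few items are not reported here. Members and lists were chosen with earlier results of these data known. Tools were Python 3.11.15, numpy 2.4.6, pandas 2.3.3, scipy 1.17.1 and matplotlib 3.10.9.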

Additional observations from a re-analysis of the deposited data

Results flagged for a closer look

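Peaks on chromosome Y and on the mitochondrial sequence lie outside the regions compared, and were flagged as signal in data not used above. On chromosome Y the lists held 25 and 23 summits in 12N1G, against 18 and 18 in N2N1G. On the mitochondrial sequence they held 24 and 21 in 12N1G, against 22 and 20 in N2N1G. The counts on chromosome Y do not overlap between the lines, with 2 libraries each, and the difference was not tested. No group has the 4 libraries needed to look for a library that stands apart.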

How the results depend on the processing

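With 1 library of a line left out, open and closed rest on the other alone, and the counts were 5015 to 8585 12N1G-only and 4701 to 8092 N2N1G-only regions. The stricter open rule, added after seeing the data, gave 1140 12N1G-only and 685 N2N1G-only. A -log10 q of at least 5 throughout (2124 12N1G-only and 1735 N2N1G-only), overlap of at least 50% of the shorter peak, a merge of all 14 libraries, equal peaks and leaving out raised bins kept both counts within 1.5 times. Requiring the difference within each same-numbered pair, the replicate block, is the same rule and gave 2690 12N1G-only and 2388 N2N1G-only.

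The 209 genes called by limma became 873 without the filter, 420 without scaling, 359 without the trend, 81 in the gene body alone and 7 with the stricter peaks. limma called 0 with a mean of at least 5 regions (306 at an unadjusted p under 0.05), 0 over all 14 libraries (198), 0 without line 1398P2 (510) and 0 with the replicate block (808). Leaving out 1 library gave 0 to 1151, with the lone library assumed to vary like the others: 1151 without 12N1G replicate 1 and 1148 without its replicate 2, and 0 without either of N2N1G (1015 and 1172 at an unadjusted p under 0.05). Replicate numbers are not a pairing in the labels, and the deviations of same-numbered libraries correlated at 0.055 across genes. The called bin gave 0 with at least 10 summits (265 at an unadjusted p under 0.05), 0 with the lower quartile (260), 0 in 500 kb bins (493), 0 with the replicate block (264) and 0 without any 1 library (113 to 241). The cause of these losses was not tested.

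Of 75 named genes, 1190 values under alternatives gave 5 changes of sign, all close to 0: Camta1 at -0.008 with the stricter peaks, -0.023 with equal peaks and -0.087 to 0.153 without 1 library, Actrt3 at -0.011 with the stricter peaks, and Dnmt3b at -0.007 in the gene body alone. Depth limits what closed can mean, since a weak peak can be missed at 0.632 to 0.803 fragments per bp.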

Other observations

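Beside the Mycl block, few places held several line-only regions close together. Of 12N1G-only regions, 4 lay within 50 kb of each other at Ccdc33 and Stra6 on chromosome 9 (58035494 to 58129152). The median local background of the 1 Mb bin around them was 3.41 and 3.41 times the floor in 12N1G and 3.41 and 3.19 times in N2N1G. A further 4 12N1G-only regions lay on chromosome 11 (7945102 to 8069274), with no gene in them. Another 3 lay at Dmkn and Krtdap, genes of the epidermis, on chromosome 7 (30765288 to 30814770). Of N2N1G-only regions, 4 lay on chromosome 17 (35944827 to 36049359), across Abcf1, Gnl1 and the nonclassical MHC genes H2-T24, H2-T23 and H2-T22. Local background, as the median of a 1 Mb bin that does not hold all of them, was 3.9 and 4.75 times in 12N1G. In N2N1G it was 5.77 and 5.31 times. Some of these MHC genes are similar in sequence, so reads can be hard to place there, and this was not tested. A further 4 N2N1G-only regions lay on chromosome 1 (128687082 to 128787771), with no gene in them. By chromosome, 12N1G-only regions made up 2.19% of regions on chromosome 17 and 3.56% on chromosome 9, the lowest and highest shares. N2N1G-only regions made up 1.99% on chromosome 19 and 3.19% on chromosome 3.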
